A study of Homo sapiens with 3 samples.

Results

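The HIST1 cluster on the short arm of chromosome 6 holds most human genes for the histones made during DNA replication. YBX1 peaks were counted there in 4 intervals of the hg19 genome, taken as the spans of these genes: 26017000 to 26060000, 26104000 to 26286000, 27093000 to 27116000 and 27775000 to 27870000. A peak was taken as a member when its midpoint lay inside an interval. Of the 17802 peaks in the deposited list, 1007 lay on chromosome 6 and 45 were members. The data come from T24, an established bladder carcinoma line, in cells that overexpressed Flag-tagged YBX1. Anti-Flag beads captured the protein with its RNA, micrococcal nuclease trimmed the RNA, and ribosomal RNA was removed before sequencing. The labels give 3 groups of 1 library each, namely the input, the YBX1 capture and the bisulfite-treated YBX1 capture, and for the last of these one label names another line and another T24. All 3 groups come from the overexpressing cells, and no capture from cells without the tag was analysed here.

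Histones package DNA: pairs of H3 and H4 form the core of the nucleosome, dimers of H2A and H2B complete it, and H1 binds the linker DNA between nucleosomes. The replication-dependent histone genes are transcribed in S phase, mostly lack introns, and give short mRNAs that end in a conserved stem-loop, bound by SLBP, in place of a poly(A) tail. YBX1 is a cold-shock-domain protein that packages mRNA in the cytoplasm, and it was first described by its binding to the Y-box, an ATTGG element of promoter DNA. Removal of ribosomal RNA, unlike selection for poly(A), does not by design leave histone mRNAs behind.

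In RefSeq's gene order on chromosome 6 (GRCh38.p14), coding histone genes form 4 stretches without another coding gene among them, and 53 genes lie in these. They encode 6 H1, 11 H2A, 14 H2B, 10 H3 and 12 H4 proteins. The first stretch, from H1-1 to H1-2, lies between TRIM38 and HFE. The second, from H4C3 to H4C8, lies between HFE and BTN3A2. The third, from H2BC11 to H2AC12, lies between ZNF322 and PRSS16, and the fourth, from H2BC13 to H2BC17, between ZNF184 and OR2B2. A further H2A and H2B gene, H2AC1 and H2BC1, are listed between SLC17A1 and SLC17A4 and are outside the intervals. The peak list is on hg19 and the table on another build, so the table served for names, order and orientation, and no peak was assigned to a gene.

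Many H2A and H2B genes of the cluster are neighbours transcribed away from each other from a shared stretch of DNA. RefSeq's promoter table lists 48 of the 53 genes, and 8 H2A and H2B pairs stand head to head in it, with 193 to 247 bases (median 241) between their start sites. The first stretch of genes has no such pair, so none could be shown for it. Short gaps between peaks, described further on, occurred in the intervals matched to the other 3 stretches. For this reason the sequences between the starts of the first pair in each of these 3 are shown. They are on the plus strand of GRCh38.p14, at chr6:26123927-26124171, chr6:27132796-27133042 and chr6:27807930-27808172, and capitals mark CCAAT or ATTGG, which are the same element on opposite strands.
H2BC4/H2AC6: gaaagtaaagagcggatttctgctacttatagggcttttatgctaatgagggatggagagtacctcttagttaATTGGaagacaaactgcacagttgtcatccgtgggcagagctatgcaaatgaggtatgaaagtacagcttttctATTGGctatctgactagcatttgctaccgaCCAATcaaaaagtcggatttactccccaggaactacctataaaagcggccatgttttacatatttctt
H2BC11/H2AC11: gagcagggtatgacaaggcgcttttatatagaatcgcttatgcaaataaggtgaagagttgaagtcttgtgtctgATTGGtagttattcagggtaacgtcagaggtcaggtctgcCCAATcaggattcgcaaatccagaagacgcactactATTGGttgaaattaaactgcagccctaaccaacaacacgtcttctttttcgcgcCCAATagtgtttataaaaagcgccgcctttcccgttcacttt
H2BC13/H2AC13: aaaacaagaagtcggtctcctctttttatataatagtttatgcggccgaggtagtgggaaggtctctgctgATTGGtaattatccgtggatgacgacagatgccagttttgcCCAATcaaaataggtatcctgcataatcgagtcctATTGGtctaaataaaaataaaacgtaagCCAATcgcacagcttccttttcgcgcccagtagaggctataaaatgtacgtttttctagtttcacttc

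The first of these sequences holds 3 such elements and the other two hold 4 each. Over the 8 pairs the number ranged from 3 to 5. CCAAT or ATTGG occurred in the 250 bases before the start of 41 of the 48 listed histone genes (85.4%), against 33.0% of 27305 genes of the promoter table. The 2 genes of a head-to-head pair share most of this window, so 16 of the 48 genes are counted from 8 stretches of DNA. These letters describe promoter DNA, whereas the peaks were called on captured RNA. In the first 50 transcribed bases, CATC was sought on the strand that reads as the RNA does. It is the core of a short motif that YBX1 is known to prefer in RNA. CATC occurred there in 4 of the 48 genes (8.33%), against 12.2% of the genes of the table. The rest of the transcripts was not searched.

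YBX1 peaks were present in all 4 intervals. The first, of 43 kb, held 6 peaks, the second, of 182 kb, held 19, the third, of 23 kb, held 5, and the fourth, of 95 kb, held 15. These counts correspond to 14 peaks per 100 kb in the first interval (95% exact Poisson interval 5.12 to 30.4), 10.4 in the second (6.29 to 16.3), 21.7 in the third (7.06 to 50.7) and 15.8 in the fourth (8.84 to 26.04). Differences in density between the 4 were not tested. The intervals of error overlap, but they cover counting error only and treat neighbouring peaks as independent, which is not the case. With 1 list and no replicates, no spread between cultures can be given, and the read depth behind a peak is unknown.

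**Figure D1:**
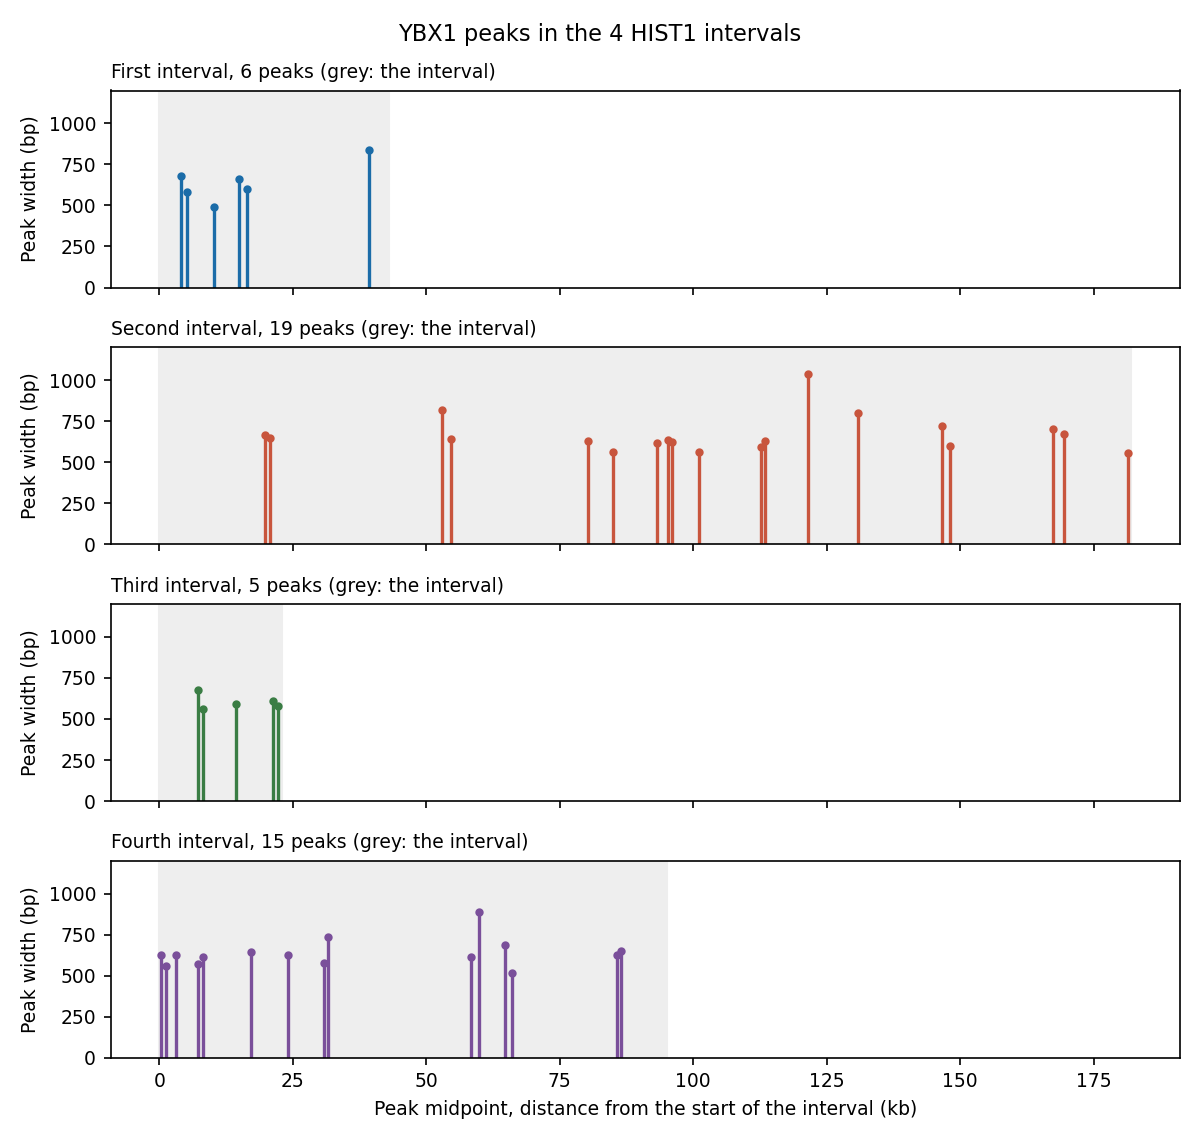
Each panel shows 1 HIST1 interval (grey), with a stem at the midpoint of every YBX1 peak, in kb from the start of the interval, whose height is the width of the peak in bp. The 45 stems stand singly or in close pairs, and all but the one of 492 bp reach at least 500 bp.

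Peaks were concentrated in the histone intervals and sparse around them. The 343 kb of the 4 intervals held 13.1 peaks per 100 kb (9.57 to 17.6). The 167492 kb of chromosome 6 outside them, from its first to its last peak, held 962 peaks, or 0.574 per 100 kb (0.539 to 0.612), which made the rate in the intervals 22.8 times higher. The intervals thus held 4.47% of the peaks of chromosome 6 in 0.204% of its span. Most of that span is not transcribed into mRNA exons, and the comparison is not adjusted for this.

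The sequence between the intervals held few peaks. None lay in the 44 kb between the first and the second interval, and the gene order has HFE, a regulator of iron uptake, between the first and the second stretch of histone genes. For a count of 0 the upper limit is 8.38 peaks per 100 kb, below the 13.1 of the intervals, and a lower density would not be detectable here. That limit lies within the error ranges of the adjoining intervals, 5.12 to 30.4 for the first and 6.29 to 16.3 for the second. The 807 kb between the second and the third interval held 1 peak, from 26393450 to 26393874. The 659 kb between the third and the fourth interval held 5. Within 1 Mb on either side of the cluster there were 7 peaks before it and 3 after it. The nearest peak before the first member was 410.1 kb away, and the nearest after the last member 831.9 kb away.

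**Figure D2:**
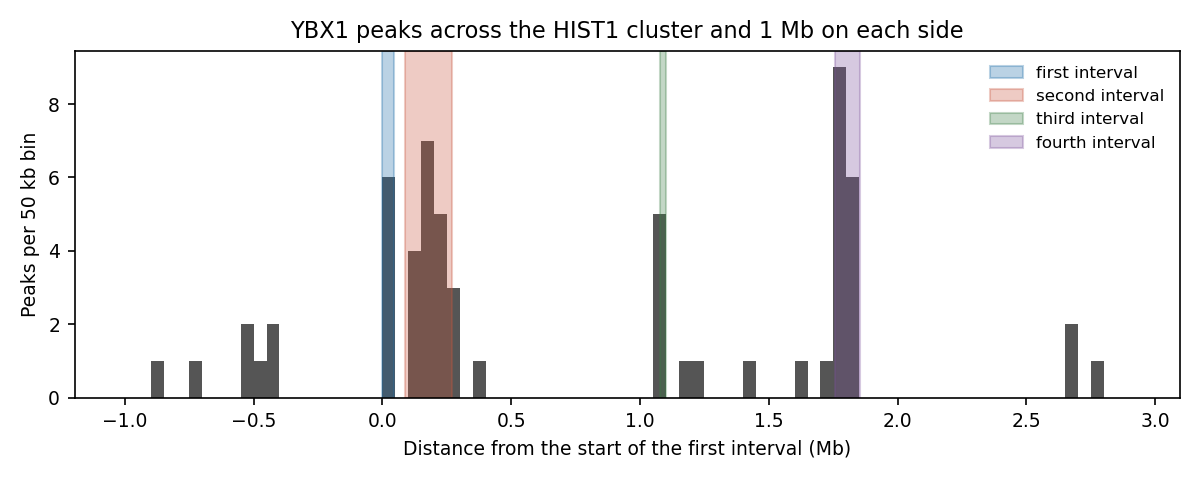
Bars give the number of YBX1 peaks in consecutive bins of 50 kb, by distance in Mb from the start of the first HIST1 interval, and coloured bands mark the 4 intervals. Bins with 3 or more peaks all overlap a band, and the 6 peaks between the bands and the 10 within 1 Mb outside them are scattered.

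The peak counts of the intervals were also set beside those of other places where YBX1 peaks occur. Windows as long as an interval were centred on each of the 17802 peaks of the list. Of the windows of 43 kb, 48.3% held at least the 6 peaks of the first interval, and of those of 182 kb, 28.0% held at least the 19 of the second. The corresponding shares were 39.8% for the third interval and 27.0% for the fourth. These windows overlap, include those on the members, and count a dense place once for each of its peaks. The intervals were not centred on peaks, so the shares do not show how usual their density was.

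Intervals and stretches of genes were matched by their order along the chromosome, since no gene was placed on hg19. Matched in this way, peaks numbered at most as many as the listed histone genes in each interval. The first interval had 6 peaks where the table lists 9 coding histone genes, the second 19 for 23, the third 5 for 5 and the fourth 15 for 16. In all there were 45 peaks for 53 genes, or 84.9 peaks per 100 genes. These counts do not show how many genes had a peak, since a gene could hold more than 1 peak and a peak could span more than 1 gene. Many of these genes are near-identical copies in their coding sequence, and how reads that fit several copies were treated is not given in the sources used. A peak at one copy may therefore hold reads of another.

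Every one of the 45 peaks can be given by place and width. In the first interval they were 679 bp wide (26020668 to 26021347), 579 bp (26021862 to 26022441), 492 bp (26026984 to 26027476), 661 bp (26031688 to 26032349), 598 bp (26033163 to 26033761) and 840 bp (26055855 to 26056695). The first 5 lay within 13.1 kb, and the sixth, the widest of the interval, stood 22094 bp beyond them.

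The second interval opened with peaks of 667 bp (26123540 to 26124207) and 647 bp (26124423 to 26125070). After the longest empty stretch of the cluster came peaks of 820 bp (26156559 to 26157379) and 641 bp (26158328 to 26158969). Next came 630 bp (26183984 to 26184614), 564 bp (26188768 to 26189332), 615 bp (26196888 to 26197503), 638 bp (26198873 to 26199511), 624 bp (26199732 to 26200356) and 564 bp (26204842 to 26205406). A pair followed, of 593 bp (26216316 to 26216909) and 628 bp (26217156 to 26217784). The widest peak of all 4 intervals, of 1036 bp, followed from 26224976 to 26226012, and another wide one, of 799 bp, from 26234398 to 26235197. The last 5 were 718 bp (26250250 to 26250968), 597 bp (26251839 to 26252436), 700 bp (26270991 to 26271691), 673 bp (26273129 to 26273802) and 558 bp wide (26285211 to 26285769).

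The third interval, the shortest, held peaks of 678 bp (27099940 to 27100618) and 560 bp (27100875 to 27101435), 1 of 592 bp (27107025 to 27107617), and 2 of 609 bp (27114020 to 27114629) and 578 bp (27114920 to 27115498). A single peak thus stood between 2 pairs. This stretch of genes has only H2A, H2B and H4 members, with no H1 or H3. The 5 peaks of the interval, the fewest of any, had the smallest spread in width of the 4 intervals. A link between width and gene class was not tested.

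In the fourth interval a group of 5 peaks came first, with widths of 627 bp (27775097 to 27775724), 562 bp (27776008 to 27776570), 624 bp (27777816 to 27778440), 573 bp (27781954 to 27782527) and 613 bp (27782803 to 27783416). Single peaks of 642 bp (27791790 to 27792432) and 625 bp (27798780 to 27799405) preceded a pair of 579 bp (27805491 to 27806070) and 738 bp (27806292 to 27807030). A group of 4 had widths of 617 bp (27833118 to 27833735), 890 bp (27834430 to 27835320), 685 bp (27839487 to 27840172) and 518 bp (27840803 to 27841321). The last pair was 624 bp (27860342 to 27860966) and 649 bp wide (27861183 to 27861832).

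The peaks of the cluster were of similar width. Their median was 625 bp, with quartiles of 592 and 673 bp and a range of 492 to 1036 bp. The mean was 669 bp ± 114 (SD over the 19 peaks) in the second interval, 642 ± 118 over the 6 of the first, 638 ± 86.8 over the 15 of the fourth and 603 ± 45.4 over the 5 of the third. The differences between these means were not tested. Over all peaks of the list the median was 470 bp with quartiles of 424 and 631 bp, and over the other 962 peaks of chromosome 6 it was 473 bp with quartiles of 432 and 593 bp. The interquartile range was thus 81.0 bp in the cluster and 207 bp over the list.

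Of the 45 peaks, 44 were at least 500 bp wide (97.8%, 95% Wilson interval 88.4 to 99.6%), whereas 40.8% of all peaks were. Widths from 550 to 700 bp, a class chosen after the widths were seen, held 36 of the 45 (80.0%, 66.2 to 89.1%) and 11.3% of all peaks. No peak of the cluster was narrower than 450 bp, against 40.2% of the list, whose narrowest peaks are 400 bp. At the other end, 1 peak of the 45 reached 1000 bp (2.22%, 0.393 to 11.6%), a range that includes the 9.80% of all peaks. A list gives 1 set of peaks, so these intervals describe counting error in it and no test between conditions was possible.

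The peaks around the cluster were narrower than those in it. The 16 peaks between the intervals and within 1 Mb on either side had a median width of 423 bp and a range of 400 to 595 bp, and 3 of them reached 500 bp (18.8%, 6.59 to 43.0%). This range of error does not overlap that of the 97.8% in the intervals. Both ranges treat neighbouring peaks as independent, and the difference was not tested. Among the other 3236 peaks of the list that had a neighbour closer than 400 bp, the median was 542.5 bp, with quartiles of 444 and 877 bp, and 13.1% were 550 to 700 bp wide. Of the 45 peaks in the cluster, 18 had a neighbour that close, against 3236 of the 17757 other peaks of the list. Those 18 peaks were 560 to 738 bp wide. Whether spacing and width are linked was not tested.

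**Figure D3:**
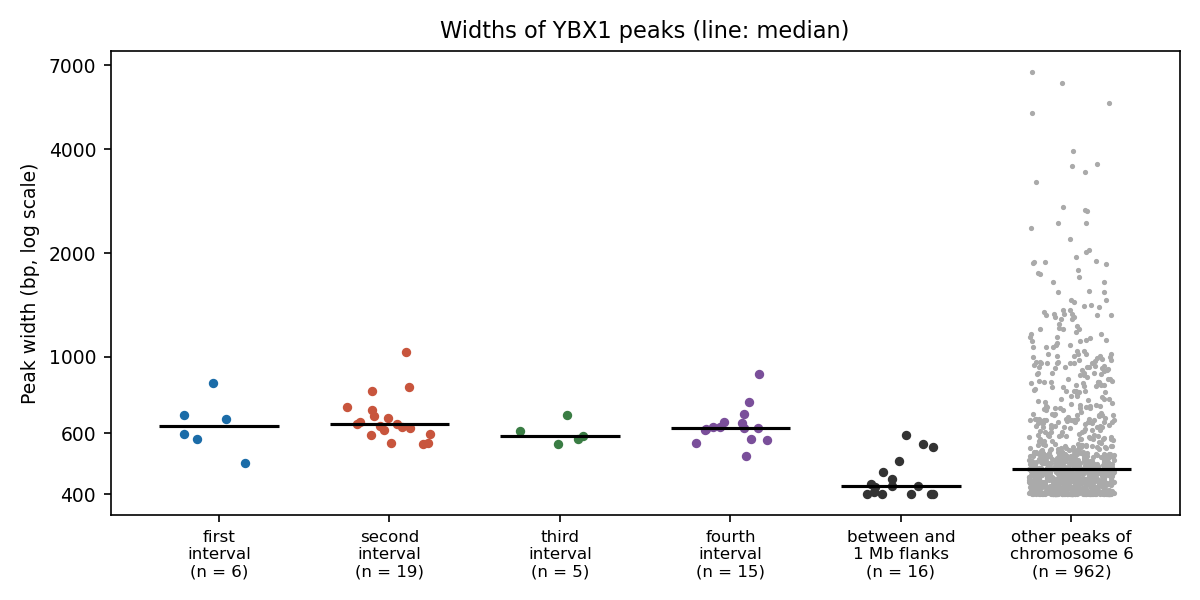
Points are single YBX1 peaks by width in bp on a log axis, for the 4 HIST1 intervals, the 16 peaks between and within 1 Mb of them, and the other 962 peaks of chromosome 6, and lines mark medians. The 45 peaks of the intervals lie from 492 to 1036 bp, above the median of 423 bp around them.

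The 5 widest peaks of the cluster, of 799 to 1036 bp, all stood without a neighbour closer than 400 bp. So did 27 of all 45 peaks of the cluster, these 5 included. Of the 3236 other peaks of the list with such a neighbour, 19.1% reached 1000 bp, against 9.82% of all 17757 peaks outside the cluster. In the cluster, the 18 peaks in close pairs were 560 to 738 bp wide (median 624 bp). Its other 27 peaks were 492 to 1036 bp wide (median 630 bp). The range was wider among the unpaired peaks, and the difference between the medians was not tested.

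Gaps between neighbouring peaks, from the end of one to the start of the next, ranged from 216 to 31489 bp. There were 41 gaps within the intervals, with a median of 4167 bp, against 4757 bp over the 17777 gaps of the list. The 2 sets are unlike. The gaps of the list include the long ones between distant places, whereas those that lead out of an interval are not among the 41. This holds for the shares below as well. The 9 shortest lay between 216 and 291 bp, and the next one was 515 bp. From 400 bp to 1 kb there were 6 gaps, from 1 to 10 kb 17, and above 10 kb 9. A gap under 400 bp thus made up 22.0% of those in the cluster (95% Wilson interval 12 to 36.7%), against 10.1% in the list. The bound of 400 bp was set after the gaps had been seen. Gaps of 216 to 291 bp, a range set by these 9 themselves, numbered 405 in the whole list, or 2.28% of its gaps.

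The 9 close pairs were alike in spacing. Their midpoints were 852 to 884.5 bp apart (median 873 bp). In the second interval the short gaps measured 216 bp (from 26124207 to 26124423), 221 bp (from 26199511) and 247 bp (from 26216909). In the third they measured 257 bp (from 27100618) and 291 bp (from 27114629). In the fourth they measured 284 bp (from 27775724), 276 bp (from 27782527), 222 bp (from 27806070) and 217 bp (from 27860966). The first interval had none, and its shortest gap was 515 bp.

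**Figure D4:**
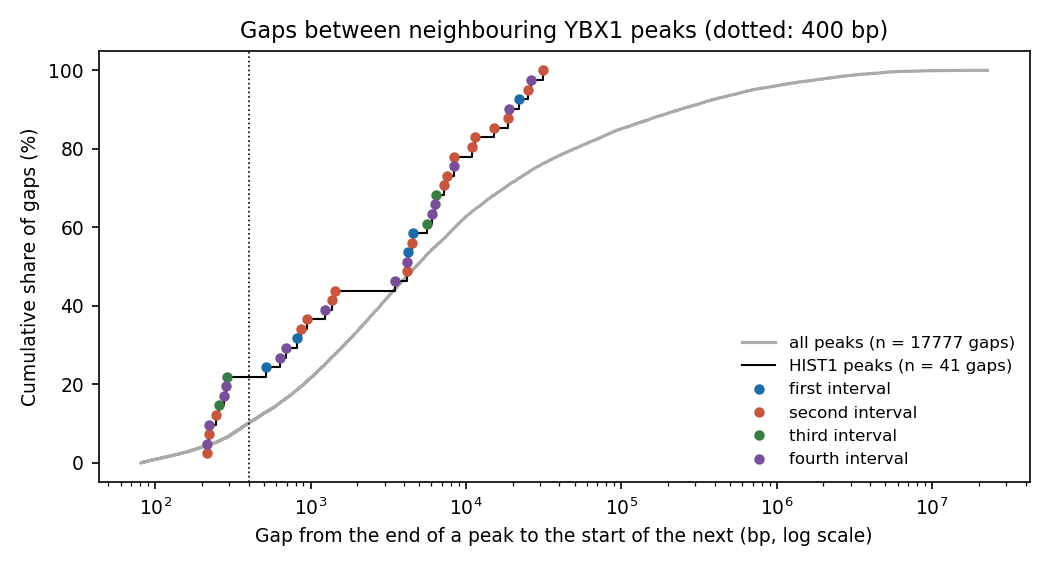
The curves give the cumulative share of gaps between neighbouring YBX1 peaks (in percent) by gap length in bp on a log axis, for the 41 gaps of the HIST1 intervals (black, points coloured by interval) and all 17777 gaps (grey). A step of 9 points lies between 216 and 291 bp, left of the dotted line at 400 bp, and the next point is at 515 bp.

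Close pairs of peaks were counted beside the neighbouring H2A and H2B genes, of which RefSeq lists 12 pairs, namely 1, 3, 3 and 5 in the 4 stretches in order. By orientation, 8 of the 12 stand head to head, 2 (H2AC4 with H2BC3, and H2BC15 with H2AC16) are on the same strand and 1 (H2AC11 with H2BC12) is tail to tail. There are 0 head-to-head pairs in the first stretch, 3 in the second, 1 in the third and 4 in the fourth. In the third stretch the strand of H2AC12 is not listed, so the orientation of H2BC12 and H2AC12 is not counted. Short gaps between peaks numbered 0, 3, 2 and 4 in the corresponding intervals. The 9 short gaps are thus fewer than the 12 neighbouring pairs and 1 more than the 8 listed head to head, and the choice of head-to-head pairs was made after the gaps had been seen. The 193 to 247 bases between start sites and the 216 to 291 bp between peak ends come from different builds and different features, and are given side by side only.

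The order of pairs and singles along the chromosome was compared next. Here H2BC12 and H2AC12 were counted as a pair, and H4C9, which lies inside the long span listed for H2BC12, was placed before it. Neighbours on the same strand or tail to tail were counted as single genes. In the third interval the peaks ran as a pair, a single peak and a pair, and the genes as a pair, a single gene and a pair. That gene order depends on these choices, made after the gaps had been seen, and its likeness to the order of peaks was not tested. In the second interval, 5 single peaks lay between the first and the second pair and 1 between the second and the third, and 5 and 1 single genes lay between the gene pairs. Before the first pair there was no single peak and there were 2 single genes. After the third pair there were 7 single peaks and 9 single genes.

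In the fourth interval the first 3 pairs of peaks were separated by 1 and then 2 single peaks, and the gene pairs by H3C10 and then by H4C11 and H4C12. Between the third and the last pair lay 4 single peaks and 5 single genes, namely H2AC16, H1-5, H3C11, H4C13 and H3C12. The first interval had 6 single peaks for 9 single genes. Order alone does not show which peak lies on which gene, and this comparison was made after the gaps had been seen.

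**Figure D5:**
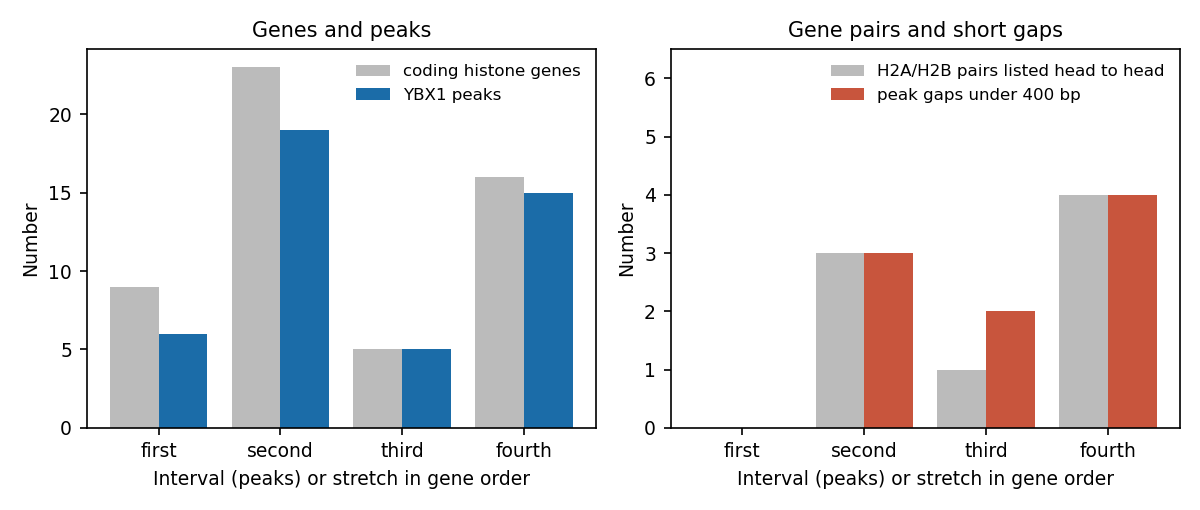
Left, numbers of coding histone genes in RefSeq's order (grey) and of YBX1 peaks (blue) for each of the 4 intervals and the stretch of genes matched to it by order. Right, numbers of H2A and H2B pairs listed head to head (grey) and of peak gaps under 400 bp (red), which were 0 and 0, 3 and 3, 1 and 2, and 4 and 4.

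Joining peaks no more than 5 kb apart gave 21 separate places. Of these, 7 held a single peak, 10 held 2, 2 held 4 and 2 held 5. The places with 5 peaks spanned 13.1 kb of the first interval and 8.32 kb of the fourth, and those with 4 spanned 8.52 kb of the second and 8.20 kb of the fourth. A neighbour within 5 kb was present for 38 of the 45 peaks (84.4%, 71.2 to 92.3%), against 68.0% of all peaks.

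Long stretches of the intervals had no peak. There were 10 stretches of at least 10 kb, and they made up 199.2 kb, or 58.1%, of the 343 kb. The second interval had 7 of them, over 72.5% of its length, the fourth had 2 and the first had 1, while the third had none. The longest were 31489 bp from 26125070 to 26156559, 26088 bp from 27807030 to 27833118, 25015 bp from 26158969 to 26183984 and 22094 bp from 26033761 to 26055855. In the second interval the 19540 bp before the first peak were also empty. Bases under peaks made up 8.95%, 6.98%, 13.1% and 10.1% of the 4 intervals in order, against 0.359% of the rest of chromosome 6. A stretch without a peak may be untranscribed, unbound or below the depth needed for a call, and the list cannot tell these apart.

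Widening the intervals by 10 kb on both sides added no peak, whereas narrowing them by 5 kb on both sides left 37 of the 45. The member nearest to an edge, from 27775097 to 27775724, had its midpoint 410.5 bp inside the fourth interval, followed by that from 26285211 to 26285769, 510 bp inside the second. The nearest peak outside, from 27758845 to 27759267 and 422 bp wide, lay 15.9 kb before the fourth interval. The list gives no strand, height or methylation call, so neither the strength of binding nor m5C in histone RNA can be described. Without a capture from untagged cells, binding by YBX1 and background capture of abundant RNA cannot be told apart at these peaks.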

How the data were processed

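Per the file headers, each deposited YBX1 peak is described by its chromosome and its 2 end positions, with no other value. Trimmomatic, MACS2 and build hg19 are named in the submitters' processing notes. Versions, settings, the aligner, the libraries used in the call and the treatment of reads that match several genes are not given in the sources used. Positions stand as deposited, and widths were computed as the difference of both ends. Peaks were placed by midpoint, gaps run from end to start, and peaks up to 5 kb apart were joined. No statistical test across conditions was possible with 1 library per group. Poisson intervals are exact and those on shares are Wilson intervals, both at 95%. Gene order, names and promoters come from RefSeq (GRCh38.p14), and no coordinates were converted. The intervals, gene families and comparisons were chosen with earlier results of these data known. The naming rule covered the coding histone genes of the cluster and their coding neighbours. The planned lists of genes for histone mRNA processing were not counted, because no peak could be placed on a gene. The functions were tested on simulated data. Python 3.11.15, numpy 2.4.6, pandas 2.3.3, scipy 1.17.1 and matplotlib 3.10.9 were used.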

Additional observations from a re-analysis of the deposited data

How the results depend on the processing

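Of 18 alternatives for 6 results, 16 stayed within 1.5 times the reported count or ratio, or within 1 SD for the width. The count of 45 peaks was the same with any overlap, with the whole peak inside, with intervals widened by 10 kb and with peaks within 100 bp merged. Widening and merging could not change it, as the nearest peak outside lay 15.9 kb away and the shortest gap was 216 bp. It was 44 with only peaks of at least 500 bp, and 37 with intervals narrowed by 5 kb at each side. The median width stayed at 625 bp and the longest empty stretch at 31489 bp under the alternatives tried for them. The settings tried for the median width kept the same 45 peaks, so this width could not change. Those tried for the empty stretch kept these 45 or dropped only the peak of 492 bp in the first interval. That stretch lies in the second interval, so its length could not change either. Joining peaks within 10 kb gave 13 separate places and within 2 kb 27, by construction of the distance. The 9 short gaps were 9 with a bound of 300 or 500 bp and 15 with 1 kb, 3 bounds added after the data had been seen. Bounds of 300 and 500 bp had to give 9, because the longest of these gaps was 291 bp and the next gap 515 bp. Some of the 16 were thus fixed in advance. The rate in the intervals was 33.0 times that between them and 28.8 times that of the sequence between them and 1 Mb on either side. No paired analysis was possible because the labels give no replicates. Read depth, and with it the level of RNA below which a peak would be missed, is unknown.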
